A study of Mus musculus with 10 samples.

Results

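The interferon response genes described here are Isg15, Irf1, Irf7, Ifit1, Rsad2, Usp18, Ifih1 and Ifi35. They are 8 of the 20494 lines of the deposited table, taken by symbol from its upper part, where each symbol was found once. RNA-seq was done on a mouse embryonic stem cell line of strain label C57BL6X129S6F1 in 5 culture conditions with 2 libraries each, and the libraries are called replicate 3 and replicate 5 after their titles. SL was KO-DMEM with 15% FBS, 1000 IU mLIF and feeder cells. The 4 other conditions had serum-free N2B27 medium with mLIF at the same 1000 IU, and all of them held the GSK3 inhibitor Chir99021 at 3 µM. The condition 2iL added 1 µM PD0325901, a MEK inhibitor, with feeder cells, and 2iL-F was the 2iL medium without feeder cells. A2iL added 1.5 µM CGP77675, a Src inhibitor, with feeder cells, and LCDM, also with feeder cells, added Dim and Mih, as the labels write them, at 2 µM. All groups are cultures of a cell line, and the cells that serve as feeders are not described in the labels. The labels do not say whether the libraries of a condition are separate cultures, and p-values below thus reflect only how much these libraries differ, which may be technical.

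Cells detect foreign or misplaced nucleic acid with sensor proteins, one of which is MDA5, the product of Ifih1. The sensors switch on interferon regulatory factors and the secretion of type I interferons, which bind the receptor IFNAR on the same or a neighbouring cell. JAK kinases at the receptor then activate a transcription factor complex that holds IRF9 and binds the interferon-stimulated response element (ISRE) of many antiviral genes. Interferon gamma acts at a different element, the gamma-activated site (GAS). Embryonic stem cells are known for a weak interferon response, whereas fibroblasts, which are common feeder cells, respond strongly.

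The upstream sequences of 4 members show the elements through which these genes are known to be switched on. They are the 150 bases before the RefSeq start on GRCm38.p6, the mm10 assembly, printed 5′ to 3′ on the strand of the gene. Capitals mark each match, on either strand, to the core of an ISRE, which is GAAA, any 2 bases and GAAA again. They also mark each match to TTCNNNGAA, the core of a GAS, which pairs with itself on the other strand.
Isg15 (chr4:156200819-156200968, minus strand): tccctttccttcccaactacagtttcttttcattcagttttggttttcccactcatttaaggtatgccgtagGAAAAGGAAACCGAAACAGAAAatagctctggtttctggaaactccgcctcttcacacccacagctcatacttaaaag
Ifit1 (chr19:34640739-34640888, plus strand): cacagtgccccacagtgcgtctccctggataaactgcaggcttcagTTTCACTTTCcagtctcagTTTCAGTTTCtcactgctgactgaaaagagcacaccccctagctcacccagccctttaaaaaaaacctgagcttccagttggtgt
Rsad2 (chr12:26456453-26456602, minus strand): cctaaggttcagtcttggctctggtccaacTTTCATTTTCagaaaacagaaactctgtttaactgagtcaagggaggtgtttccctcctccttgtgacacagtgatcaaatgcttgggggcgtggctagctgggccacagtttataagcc
Irf1 (chr11:53769864-53770013, plus strand): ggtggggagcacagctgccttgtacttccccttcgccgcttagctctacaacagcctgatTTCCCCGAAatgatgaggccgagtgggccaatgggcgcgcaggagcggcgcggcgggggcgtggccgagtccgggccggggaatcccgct
Isg15 has 3 overlapping ISRE matches from base -78 to base -57, counted from the start. Ifit1 has ISRE matches at bases -104 to -95 and -85 to -76, and Rsad2 has 1 at -120 to -111. Irf1 has a GAS match, TTCCCCGAA, at -90 to -82. Windows of 300 bases, from 250 before to 50 after the start, were on hand for 7 of the 8 members, with Usp18 the exception. Ifih1 has the match GAAACAGAAA at 33 to 42 after its start, Ifi35 has TTCACAGAA at 8 to 16 after its start, and Irf7 has neither motif in its window. The 7 members have 8 windows, as Irf1 has a second one, which holds neither motif. ISRE matches thus occur in 4 of the 8 windows, against 3.44% of all 32851 windows of that length, and GAS matches in 2 of the 8, against 8.3%. A wider list of antiviral and other interferon-stimulated genes had an ISRE match in 27 of its 72 windows, or 37.5%. A match describes letters in the window and shows no binding.

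The deposited values are TPM, transcripts scaled to a common total, which correct for gene length and hold no number of reads, so that depth is unknown. A change is the difference between 2 conditions in mean log2(TPM + 1), with the SE that limma's linear model over all 10 libraries gave it. It counts as called when its p-value, adjusted by Benjamini-Hochberg, is below 0.05. This scale understates the change of genes with low TPM. Folds of TPM are imprecise where a mean lies below 1 TPM, as depth is unknown. Lines with 1 TPM in 2 or more libraries were tested, 14578 in all, and they include all 8 members. Rsad2 and Ifih1 were kept by 4 libraries each, all from SL, A2iL or 2iL-F for Rsad2 and from SL or A2iL for Ifih1, so their passing depended on the conditions where they are high. Ifit1 and Usp18 likewise passed through SL, A2iL and 2iL-F, and Isg15 and Irf7 through the conditions other than 2iL. For these genes, p-values against a condition where they lie below 1 TPM are therefore only descriptive, as the filter favours such a difference. In the lower part of the table the gene symbols are displaced against the values, so the members and all other genes are named only from the upper part, where 7962 lines were tested.

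Fibroblast transcripts went against the feeder labels of 2 conditions, and those conditions are therefore called by their labels throughout. Col1a1, which encodes a chain of the type I collagen that fibroblasts secrete, had 366 and 393 TPM in SL, 407 and 381 in A2iL, and 108 and 105 in LCDM. Both libraries labelled 2iL should hold feeders and had 0.2004 and 0.264 TPM, and both labelled 2iL-F should hold none and had 1058 and 974 TPM. Whether the labels 2iL and 2iL-F were swapped was not tested. If they were, the medium of both would still be right, and each feeder statement about them would turn round. Of 38 fibroblast markers found, 7 were at 0 in both libraries labelled 2iL, among them Acta2, Lox and Postn, and 16 reached 1 TPM in both. The summed TPM of these markers ranged over 7718 to 8050 in SL, 4438 to 4544 in A2iL and 1776 to 1794 in LCDM. It was 5882 to 6109 in 2iL-F and 1239 to 1289 in 2iL. Most of the 2iL sum came from Sparc, with a mean of 441 TPM, and Fn1, with 403, whereas Col1a2 had 0.00684 there. The stem cell factor Pou5f1 had a mean of 1019 to 1363 TPM in every condition. Of other cell types, 10 leukocyte and macrophage markers summed to 40.8 to 47.7 TPM in SL, 84.0 to 86.2 in LCDM, 92.0 to 92.2 in A2iL, 94.1 to 97.6 in 2iL and 110.1 to 115.8 in 2iL-F, most of it from Laptm5 and Cd68. Ptprc, the marker of all leukocytes, had a mean of at most 0.0826 TPM. Of the 7 leukocyte markers tested, 4 were lower in 2iL than in SL and 3 higher (40.9% and 36.7% of all lines). The 3 higher were Laptm5, with a mean of 50.45 against 11.94 TPM, Cd68, with 37.24 against 14.25, and Cd3e, with 2.092 against 0.2955. In LCDM, 3 of the 7 were lower than in SL and 3 higher (33.7% and 32.2% of all lines). The higher ones were again Laptm5, Cd68 and Cd3e, so the markers were divided in both conditions. Adgre1 and Tyrobp, chosen after their values were seen, were among those low in 2iL and LCDM. Adgre1, a macrophage surface protein, had a mean of 2.33 TPM in SL, 3.66 in A2iL, 0.544 in 2iL-F and 0.114 in LCDM, and was listed at 0 in both 2iL libraries. Tyrobp, a signalling adaptor of myeloid cells, had 2.12 TPM in SL, 1.43 in A2iL, 0.530 in 2iL-F, 0.278 in LCDM and 0.0618 in 2iL. The changes of Adgre1 and Tyrobp from SL to 2iL were -1.73 ± 0.10 and -1.53 ± 0.18 on the log2(TPM + 1) scale. As both were chosen for their low values there, no p-value is given. The part of such cells in the members' levels was not tested. The summed TPM of 7 endothelial markers ranged from 18.8 to 44.3 TPM, with Cdh5, the endothelial cadherin, at a mean of at most 0.154 TPM. In such bulk RNA, fewer cells of a type and less RNA per cell cannot be told apart.

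**Figure D1:**
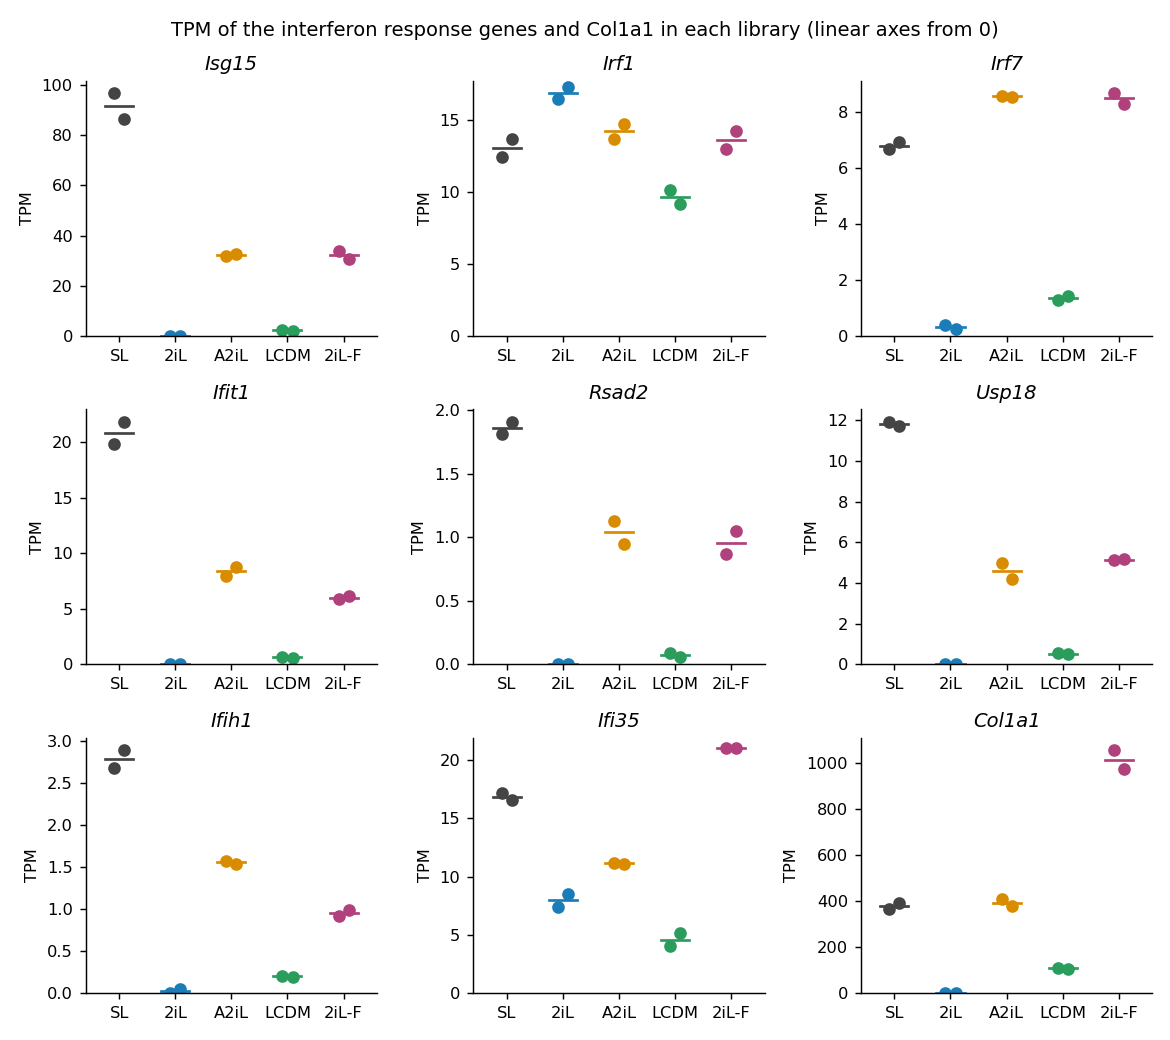
TPM of the 8 interferon response genes and of Col1a1 (vertical axes, linear from 0) in the 2 libraries of each culture condition (horizontal axes); points are libraries and lines are condition means. Isg15, Ifit1, Rsad2, Usp18 and Ifih1 are highest in SL and lowest in the libraries labelled 2iL, whereas Irf1 is highest in 2iL, Irf7 is highest in A2iL and 2iL-F, and Ifi35 and Col1a1 are highest in 2iL-F.

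In the libraries labelled 2iL, 7 of the 8 interferon response genes were lower than in SL and 1, Irf1, was higher, where 40.9% of all tested lines were lower and 36.7% higher. Since 6 of the members passed the filter only through conditions other than 2iL, their lower level there is partly built into the count, which is given as a description. The same holds in LCDM for Ifit1, Rsad2, Usp18 and Ifih1, which did not reach 1 TPM there. The members' median change was -2.23, against -0.04 over all tested lines. In LCDM all 8 were lower than in SL, with a median of -1.71 and a range from -4.82 to -0.40, where 33.7% of all lines were lower and 32.2% higher. A2iL and 2iL-F were nearer to SL. In A2iL, 6 members were lower and Irf7 was higher (31.9% and 21.9% of all lines), with a median of -0.56. In 2iL-F, 5 were lower and Irf7 and Ifi35 were higher (37.3% and 28.1% of all lines), with a median of -0.75. These 4 comparisons share the SL libraries, so they are not independent of each other.

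Between the N2B27 conditions, 7 members were higher in 2iL-F than in 2iL and Irf1 was lower (29.2% and 32.5% of all lines). The same counts, 7 higher and 1 lower, were found for A2iL against 2iL (33.2% and 36.2%). Isg15, Irf7, Ifit1, Rsad2, Usp18 and Ifih1 were below 1 TPM in 2iL and passed the filter only through other conditions. Both counts against 2iL are thus partly built in and serve as a description. LCDM had all 8 members lower than 2iL-F (27.2% of all lines lower, 32.3% higher) and all 8 lower than A2iL (22.9% lower, 31.1% higher). For Ifit1, Rsad2, Usp18 and Ifih1, which did not reach 1 TPM in LCDM, this too is partly built in by the filter. LCDM against 2iL was mixed: Isg15, Irf7, Ifit1 and Usp18 were higher, Irf1 and Ifi35 were lower, and Rsad2 and Ifih1 did not pass (34.3% of all lines higher and 28% lower). A2iL and 2iL-F differed in 3 members, with Ifit1 and Ifih1 higher and Ifi35 lower in A2iL (22.2% and 23% of all lines). So many lines were called in every comparison that a call by itself sets a gene apart from few others, and the sizes below carry the description.

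**Figure D2:**
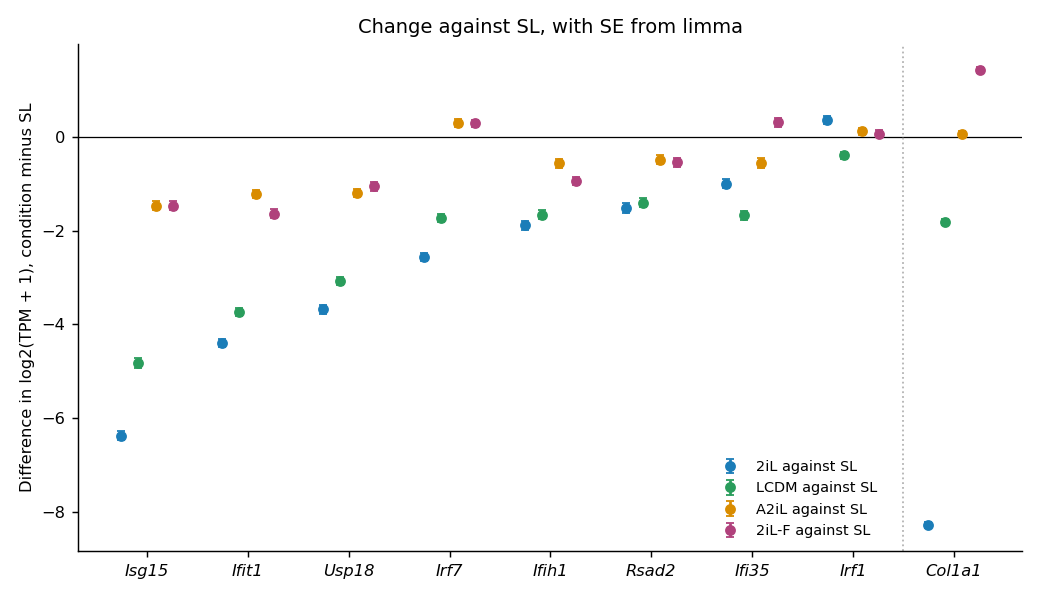
Difference in log2(TPM + 1) from SL (vertical axis) for each interferon response gene and, right of the dotted line, Col1a1 (horizontal axis), with 1 point per condition and SE from limma. The 2iL points run from -6.37 for Isg15 to 0.35 for Irf1, while Col1a1 lies at -8.27 in 2iL, 0.05 in A2iL and 1.42 in 2iL-F.

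Ifih1, which encodes the cytoplasmic sensor of long double-stranded RNA (chromosome 2, 62595798 to 62646255, mm10), was a low transcript. It had 2.69 and 2.90 TPM in SL, 1.57 and 1.54 in A2iL, 0.920 and 0.995 in 2iL-F, and 0.202 and 0.195 in LCDM. It was listed at 0 in replicate 3 and at 0.0504 in replicate 5 of 2iL. No 2 conditions overlapped. Its change against SL was -1.89 ± 0.09 in 2iL (limma, adjusted p = 1.9e-07), -1.66 ± 0.09 in LCDM (adjusted p = 9.57e-07), -0.95 ± 0.09 in 2iL-F (adjusted p = 2.79e-05) and -0.57 ± 0.09 in A2iL (adjusted p = 0.000992). As TPM, the mean in SL was 14.1-fold that in LCDM and 1.79-fold that in A2iL. The higher level in A2iL than in 2iL-F, by 0.39 ± 0.09 (adjusted p = 0.00897), did not pass without replicate 3 of 2iL-F (adjusted p = 0.0508). It did not pass with a pseudocount of 0.1 either (adjusted p = 0.0728), which in turn called LCDM higher than 2iL (adjusted p = 0.0026, against 0.061 with a pseudocount of 1). That difference also passed with no filter (adjusted p = 0.0178) and with the named lines alone (adjusted p = 0.0446).

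Irf7, the transcription factor that amplifies type I interferon production (chromosome 7, 141262706 to 141266481), was not highest in SL. It had 8.57 and 8.54 TPM in A2iL, 8.69 and 8.30 in 2iL-F, 6.67 and 6.93 in SL, 1.29 and 1.43 in LCDM, and 0.395 and 0.262 in 2iL. The libraries of A2iL and 2iL-F overlapped (adjusted p = 0.933), and those of all other conditions were apart. SL exceeded 2iL by 20.7-fold, a change of -2.56 ± 0.08 in 2iL (adjusted p = 1.28e-08), and LCDM by 5.01-fold (-1.73 ± 0.08, adjusted p = 3.37e-07). The higher levels in A2iL (0.29 ± 0.08, adjusted p = 0.0141) and 2iL-F (0.28 ± 0.08, adjusted p = 0.0129) than in SL were small and fragile. The A2iL difference did not pass without replicate 3 of SL (adjusted p = 0.0753), replicate 3 of A2iL (adjusted p = 0.0649) or replicate 5 of A2iL (adjusted p = 0.0607). The 2iL-F difference did not pass without replicate 3 of SL (adjusted p = 0.0686) or replicate 3 of 2iL-F (adjusted p = 0.0754), and with a pseudocount of 0.1 neither passed (adjusted p = 0.0981 for A2iL and 0.094 for 2iL-F).

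Irf1, a transcription factor induced by both interferon gamma and type I interferon that also acts in growth control (chromosome 11, 53770014 to 53778374), behaved differently from the other members. It was highest in 2iL, at 16.5 and 17.3 TPM, and lowest in LCDM, at 10.1 and 9.19 TPM. In between lay A2iL with 13.7 and 14.7, 2iL-F with 13.0 and 14.2, and SL with 12.4 and 13.7 TPM, and no difference among these 3 passed, with adjusted p from 0.255 to 0.576. Its range over conditions, 1.75-fold between 2iL and LCDM, was the narrowest of the 8 members. The level in 2iL was higher than in SL by 0.35 ± 0.08 (adjusted p = 0.00317), and that in LCDM lower than in SL by -0.40 ± 0.08 (adjusted p = 0.00189). The difference of A2iL from 2iL, -0.23 ± 0.08 (adjusted p = 0.0254), was lost without replicate 5 of 2iL (adjusted p = 0.0948) or replicate 3 of A2iL (adjusted p = 0.14). That of 2iL-F from 2iL, -0.29 ± 0.08 (adjusted p = 0.0108), was lost without replicate 3 of 2iL-F (adjusted p = 0.0781).

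Isg15, a ubiquitin-like protein that is conjugated to other proteins in the antiviral response (chromosome 4, 156199424 to 156200818), had the highest TPM of the 8 members in SL and the widest range. It had 96.7 and 86.2 TPM in SL, 31.9 and 32.7 in A2iL, 33.9 and 30.8 in 2iL-F, 2.57 and 1.985 in LCDM, and 0.116 and 0.109 in 2iL. A2iL and 2iL-F overlapped (difference -0.00 ± 0.10, adjusted p = 0.988), and all other conditions were apart. The mean in SL was 2.83-fold that in A2iL, 40.1-fold that in LCDM and 813-fold that in 2iL. The corresponding changes against SL were -1.47 ± 0.10 (adjusted p = 5.46e-06), -4.82 ± 0.10 (adjusted p = 4.75e-09) and -6.37 ± 0.10 (adjusted p = 1.95e-10). Between the cultures labelled 2iL-F and 2iL, which share a medium, Isg15 differed by 288-fold, a change of 4.91 ± 0.10 (adjusted p = 1.73e-09). Its values in 2iL lay near 0, so the 813-fold and the 288-fold are imprecise.

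Ifit1 (chromosome 19, 34640871 to 34650009) encodes a protein that binds viral RNA that lacks the cap methylation of the host. Like Isg15, it was highest in SL and lowest in 2iL, with a clearer step between A2iL and 2iL-F. It had 19.8 and 21.9 TPM in SL, 7.96 and 8.80 in A2iL, 5.89 and 6.15 in 2iL-F, and 0.696 and 0.598 in LCDM. In 2iL it had 0.0660 TPM in replicate 3 and was listed at 0 in replicate 5. No conditions overlapped. SL exceeded A2iL by 2.49-fold (-1.22 ± 0.09, adjusted p = 8.89e-06), 2iL-F by 3.46-fold (-1.64 ± 0.09, adjusted p = 7.02e-07) and LCDM by 32.2-fold (-3.73 ± 0.09, adjusted p = 1.06e-08). Against 2iL, where 1 library was at 0, no fold is given, and the change was -4.40 ± 0.09 (adjusted p = 8.42e-10). The higher level in A2iL than in 2iL-F, 0.42 ± 0.09 (adjusted p = 0.00468), did not pass with a pseudocount of 0.1 (adjusted p = 0.116). Ifit1 belongs to a family with near copies in the genome, and how reads shared among copies were assigned is not given in the sources used here.

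Rsad2, which encodes viperin, an enzyme that makes a nucleotide that stops viral polymerases (chromosome 12, 26442746 to 26456452), was low in every library. It had 1.81 and 1.91 TPM in SL, 1.13 and 0.948 in A2iL, 0.866 and 1.05 in 2iL-F, and 0.0897 and 0.0611 in LCDM, and its listed value was 0 in each 2iL library. A2iL and 2iL-F overlapped (adjusted p = 0.673). The mean in SL was 1.79-fold that in A2iL, 1.94-fold that in 2iL-F and 24.7-fold that in LCDM. On the log2(TPM + 1) scale the changes from SL were -0.49 ± 0.10 (adjusted p = 0.00383), -0.55 ± 0.10 (adjusted p = 0.00149) and -1.41 ± 0.10 (adjusted p = 4.7e-06), and in 2iL -1.52 ± 0.10 (adjusted p = 1.53e-06). The difference of LCDM from 2iL did not pass at a pseudocount of 1 (0.10 ± 0.10, adjusted p = 0.401) and did at 0.1 (adjusted p = 0.031).

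Usp18 (chromosome 6, 121245906 to 121270917) encodes the protease that removes ISG15 from its targets and holds back signalling at the type I receptor. By mean it was highest in SL, followed by 2iL-F, A2iL, LCDM and 2iL. It had 11.94 and 11.75 TPM in SL, 5.01 and 4.22 in A2iL, 5.13 and 5.16 in 2iL-F, and 0.558 and 0.506 in LCDM, and both 2iL libraries list it at 0. The A2iL and 2iL-F libraries were apart, yet their difference of -0.13 ± 0.09 did not pass (adjusted p = 0.248). SL exceeded A2iL by 2.57-fold (-1.20 ± 0.09, adjusted p = 1.01e-05), 2iL-F by 2.30-fold (-1.06 ± 0.09, adjusted p = 1.02e-05) and LCDM by 22.3-fold (-3.07 ± 0.09, adjusted p = 2.5e-08). The change in 2iL was -3.68 ± 0.09 (adjusted p = 2.47e-09).

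Ifi35, an interferon-induced protein that pairs with NMI (chromosome 11, 101448407 to 101458698), kept a measurable level in every condition. It had 21.1 and 21.0 TPM in 2iL-F, 17.2 and 16.5 in SL, 11.2 and 11.1 in A2iL, 7.41 and 8.49 in 2iL, and 4.05 and 5.11 in LCDM, and no conditions overlapped. Of the 7 members other than Irf1, it was the only one lower in LCDM than in 2iL (-0.69 ± 0.10, adjusted p = 0.000321). SL exceeded LCDM by 3.68-fold (-1.68 ± 0.10, adjusted p = 1.1e-06) and 2iL by 2.12-fold (adjusted p = 1.49e-05). The higher level in 2iL-F than in SL, 0.30 ± 0.10 (adjusted p = 0.0209), was lost when any 1 of the 4 libraries was left out: SL replicate 3 (adjusted p = 0.054), SL replicate 5 (adjusted p = 0.0927), 2iL-F replicate 3 (adjusted p = 0.0768) or 2iL-F replicate 5 (adjusted p = 0.0746).

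Set beside Col1a1, 6 of the 8 members shared the 2 conditions where it was lowest. Col1a1 was highest in 2iL-F, and by its mean only Ifi35 was too. Irf7 had overlapping libraries in A2iL and 2iL-F, with means of 8.557 and 8.494 TPM. Isg15, Ifit1, Usp18, Irf7, Ifih1 and Rsad2 had their lowest mean in 2iL and their next lowest in LCDM, as did Col1a1. Col1a1 was 2.68-fold higher in 2iL-F than in SL (1.42 ± 0.06, adjusted p = 2.08e-07) and did not pass between A2iL and SL (0.05 ± 0.06, adjusted p = 0.483). Isg15, Ifit1, Usp18, Ifih1 and Rsad2 were all lower than SL in both of those conditions. Fibroblast markers were divided there. Of 38, 19 were lower and 10 higher in A2iL than in SL (31.9% and 21.9% of all lines). In 2iL-F, 19 were lower and 18 higher than in SL (37.3% and 28.1%). Col1a1 alone thus does not stand for all fibroblast RNA.

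Per 100 TPM of Col1a1, Isg15 had 24.2 ± 3.18 TPM in SL, 8.21 ± 0.549 in A2iL, 3.19 ± 0.0290 in 2iL-F and 2.13 ± 0.343 in LCDM (SD, n = 2). The highest of these was 11.3-fold the lowest, against 11.7-fold per Col1a2 and 34.9-fold per Col3a1, where 2iL-F was lowest. Ifit1 spanned 9.24-fold, from 5.49 ± 0.102 in SL to 0.594 ± 0.0527 in 2iL-F, and Ifih1 7.79-fold, Rsad2 6.96-fold and Usp18 6.27-fold, each highest in SL. Irf7 spanned 2.60-fold, from 2.17 ± 0.0968 in A2iL to 0.837 ± 0.0221 in 2iL-F, and Ifi35 2.15-fold, from 4.45 ± 0.349 in SL to 2.08 ± 0.119 in 2iL-F. Irf1 was highest in LCDM, at 9.05 ± 0.422, and lowest in 2iL-F, at 1.35 ± 0.165. A constant ratio to Col1a1 was thus found for no member over SL, A2iL, LCDM and 2iL-F. Per Col3a1 the spans were wider, from 9.90-fold for Irf7 and 9.91-fold for Ifi35 to 42.9-fold for Ifit1, and all 8 members were lowest in 2iL-F. These ratios are a description with no test, and their order depends on the collagen chosen: the small excess of Irf1 and Irf7 in A2iL over SL, 0.07 and 0.28 as log2 ratios, turned to -0.29 and -0.08 per Col1a2 and to -1.98 and -1.77 per Col3a1.

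**Figure D3:**
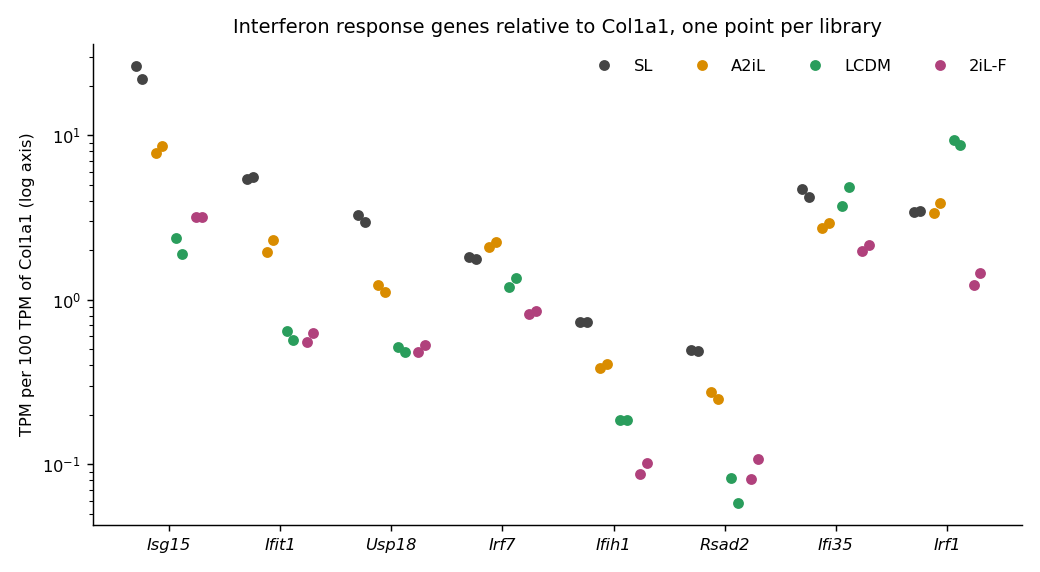
TPM of each interferon response gene per 100 TPM of Col1a1 (vertical axis, log scale) by gene (horizontal axis), with 1 point per library of SL, A2iL, LCDM and 2iL-F; 2iL is left out because its Col1a1 is near 0. Isg15 falls from 24.2 in SL to 2.13 in LCDM, and Irf1 alone is highest in LCDM.

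In the libraries labelled 2iL, where Col1a1 was 0.2004 and 0.264 TPM, 2 members remained at several TPM: Irf1 at 16.5 and 17.3, and Ifi35 at 7.41 and 8.49. The 6 others were at or below 0.395 TPM there. The part of fibroblast RNA in the levels of the members in SL, A2iL, LCDM and 2iL-F was not tested.

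The rest of the pathway was read from lists of its genes, found in the upper part of the table. Interferon genes themselves were not analysed here, as none of the 19 listed was among these lines. Of 10 genes of the receptors and their direct signalling tested, 9 were lower in 2iL than in SL and 1 was higher, with a median of -0.64, where 40.9% of all tested lines were lower and 36.7% higher. Ifnar1 and Ifnar2, the chains of the type I receptor, had 12.7 ± 0.665 and 7.63 ± 0.133 TPM in 2iL against 18.5 ± 1.22 and 12.4 ± 1.96 in SL. Jak1 had 21.1 ± 1.88 against 31.6 ± 1.49 TPM, and Tyk2, the partner kinase of the type I receptor, was the 1 that was higher, at 20.7 ± 0.745 against 9.14 ± 1.29 TPM (1.10 ± 0.09, adjusted p = 5.46e-06 by limma). So receptor and kinase transcripts were still present in 2iL, where Isg15, Rsad2 and Usp18 were near or at 0.

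Of 7 interferon regulatory factors tested, 3 were higher and 3 lower in 2iL than in SL, near the 36.7% and 40.9% of all tested lines. Irf5, the most abundant of them, had 56.6 ± 4.83 TPM in 2iL and 41.2 ± 0.469 in SL, and Irf9, the DNA-binding subunit of the ISRE complex, 6.40 ± 1.07 and 10.7 ± 0.0381 TPM. Of 10 nucleic acid sensors and adaptors, 2 were higher and 5 lower, also not far from those shares. Trim25, a ubiquitin ligase of RNA sensing, had 86.0 ± 0.879 TPM in 2iL against 52.7 ± 0.930 in SL, and Tmem173, which encodes STING, 11.4 ± 1.12 against 7.72 ± 0.277 TPM. Eif2ak2, the kinase PKR that is activated by double-stranded RNA, had 9.99 ± 1.44 against 17.7 ± 0.571 TPM, and Tbk1, the kinase that activates regulatory factors, did not pass (-0.04 ± 0.07, adjusted p = 0.596).

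Ube2l6, the conjugating enzyme that passes ISG15 to its targets, did not follow Isg15 and Usp18. It had 24.1 ± 2.70 TPM in 2iL and 25.6 ± 1.01 in 2iL-F, against 5.43 ± 0.533 in SL, 6.58 ± 0.437 in A2iL and 1.40 ± 0.527 in LCDM. Its change from SL was 1.96 ± 0.15 in 2iL (adjusted p = 2.71e-06) and 2.05 ± 0.15 in 2iL-F (adjusted p = 4.01e-06). Between 2iL-F and 2iL it did not pass (0.08 ± 0.15, adjusted p = 0.641), whereas the change of Isg15 there was 4.91 ± 0.10.

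Among 29 tested antiviral effectors and other interferon-stimulated genes, 4 of which are Isg15, Ifit1, Rsad2 and Ifi35, 22 were lower in 2iL than in SL and 4 were higher, with a median of -1.09 (40.9% and 36.7% of all lines). LCDM had 24 lower and 3 higher than SL, with a median of -1.16 (33.7% and 32.2% of all lines). A2iL had 12 lower and 6 higher than SL (31.9% and 21.9% of all lines), and 2iL-F had 11 lower and 10 higher (37.3% and 28.1%), each with a median of -0.16, so these counts lay near those of all lines. In 2iL-F against 2iL, 25 were higher and 2 lower, with a median of 1.25 (29.2% and 32.5% of all lines). Of the 31 such genes found, 11 reached 1 TPM in both 2iL libraries and 16 in both LCDM libraries. Many thus passed the filter through other conditions, so their lower levels in 2iL and LCDM are partly built into these counts, which are a description. The most abundant were membrane proteins that block virus entry: Ifitm3 had 1177 ± 27.5 TPM in A2iL, 1124 ± 17.6 in 2iL-F, 826 ± 32.9 in SL, 584 ± 63.9 in 2iL and 370 ± 17.5 in LCDM. Ifitm1 was higher in 2iL than in SL, at 161 ± 4.54 against 55.0 ± 0.444 TPM (1.53 ± 0.08, adjusted p = 2.28e-07). Ifi30, a lysosomal thiol reductase, was also higher in 2iL, at 211 ± 14.8 against 64.5 ± 2.37 TPM (1.70 ± 0.06, adjusted p = 1.57e-08). Daxx, a histone chaperone, did not pass (0.05 ± 0.06, adjusted p = 0.441).

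**Figure D4:**
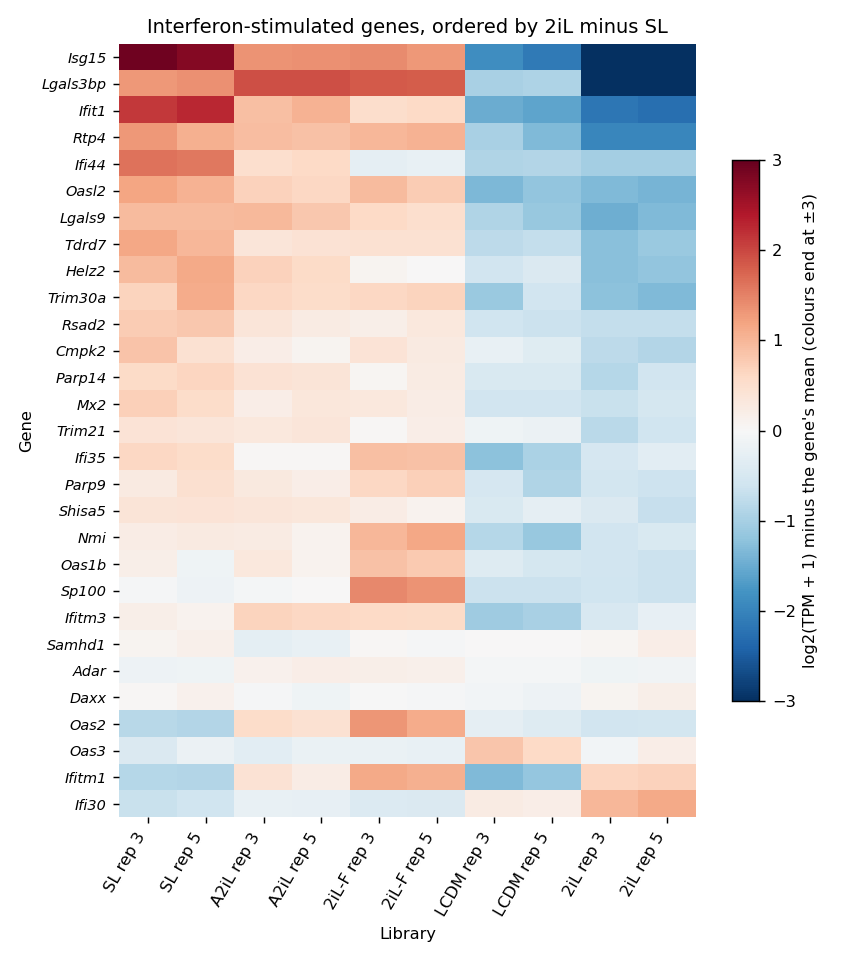
Log2(TPM + 1) minus the gene's mean over 10 libraries (colour, cut at ±3) for the 29 tested antiviral effectors and other interferon-stimulated genes (rows, ordered by 2iL minus SL) in each library (columns). Isg15 leads the genes that are lower in 2iL, and Ifitm1 and Ifi30, at the bottom, are higher in 2iL than in SL.

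Only 3 interferon-induced GTPases could be tested, and all 3 were lower in 2iL and in LCDM than in SL (40.9% and 33.7% of all lines). All 3 were below 1 TPM in every 2iL and LCDM library, so they passed the filter only through other conditions. Their lower level is thus largely built into this count, which is a description. Gbp2, which attacks the vacuoles of intracellular pathogens, had 18.6 ± 0.495 TPM in SL, 6.12 ± 1.57 in A2iL, 4.37 ± 0.102 in 2iL-F and 0.520 ± 0.140 in LCDM, and both 2iL libraries list it at 0, as they do Gbp3. Gbp9 had 1.32 ± 0.627 TPM in SL and 2.44 ± 0.289 in A2iL. In antigen processing, 6 of 8 tested genes were lower in 2iL than in SL and 2 were higher (40.9% and 36.7% of all lines). Only 4 of the 9 found reached 1 TPM in both 2iL libraries, so this count is partly built in as well. H2-Q4, a class I gene, had 5.20 ± 0.00233 TPM in 2iL, 13.1 ± 0.150 in SL and 36.8 ± 2.39 in A2iL, and the immunoproteasome subunit Psmb10 had 46.5 ± 2.48 TPM in SL and 16.5 to 22.4 TPM on average in the others. Psme1, a proteasome activator, and Tapbp, which loads peptide onto class I molecules, were the 2 that were higher. H2-Q4 has near copies among the class I genes, so its level is uncertain.

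Of 14 negative regulators tested, 6 were higher and 6 lower in 2iL than in SL (median 0.13), near the 36.7% and 40.9% of all tested lines. The 4 named here were chosen for their high TPM. Pias4 had 62.7 ± 0.338 TPM in 2iL against 36.3 ± 0.445 in SL, Ptpn2, a phosphatase that acts on JAK1, 38.9 ± 5.59 against 27.8 ± 0.862, Pias2 37.1 ± 3.41 against 42.0 ± 0.139, and Otud5 31.0 ± 0.481 against 45.1 ± 1.22. The chemokines Ccl2, Ccl7, Cxcl10 and Ccl5, which attract leukocytes, were all listed at 0 in each 2iL library. Cxcl10, which interferon gamma induces, followed the order of Ifit1, with 6.29 ± 1.07 TPM in SL, 1.91 ± 0.0568 in A2iL, 1.04 ± 0.177 in 2iL-F and 0.163 ± 0.0470 in LCDM, whereas Ccl2 was highest in A2iL, at 599 ± 24.1 TPM.

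Genes with the most similar profile were sought by the root mean square difference of centred log2(TPM + 1) means over the 5 conditions, among 7854 genes. The nearest to Ifit1 was Gbp2 (0.15), then the fibroblast cadherin Cdh11 (0.24) and Usp18 (0.32). The nearest to Isg15 were Cd44, a hyaluronan receptor (0.50), Anxa3 (0.64) and Cdh11 (0.65), with Col1a1 in place 547 (1.85). For Irf7 they were Vcan, a matrix proteoglycan (0.09), Gpx3 (0.17) and Osmr, a cytokine receptor subunit (0.18). For Usp18 they were Lats2 (0.23), Sema3c (0.24) and Samd4 (0.26). Nmi, whose product pairs with that of Ifi35, was the second nearest to Ifi35 (0.19), between Hoxc10 (0.13) and Hoxc5 (0.21). Ror1 (0.05), Clcn4 (0.06) and Zswim8 (0.06) lay nearest to Rsad2, and Sox9 (0.05), Magee1 (0.06) and Serinc1 (0.08) nearest to Ifih1. Irf1 lay nearest to Litaf (0.05), Rel (0.06) and Rasa3 (0.07), with Col1a1 at 3.55. Col1a1, which has a wide range, was the last of the 7854 genes for Irf1, Rsad2, Ifih1 and Ifi35, and in places 7846, 7825 and 7715 for Irf7, Usp18 and Ifit1. Among the members themselves the closest pair was Rsad2 and Ifih1 (0.16) and the farthest Isg15 and Irf1 (2.41). Genes of small range have small differences by this measure, so the values compare poorly between members.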

How the data were processed

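Libraries were made with NEBNext Ultra reagents from total RNA isolated by Qiagen kit, per the labels' protocols. The deposited values are TPM, 1 column per library, and the authors' processing used mm10, Bowtie2, RSEM, DESeq2 and R 3.4.2, which are named without their roles, per the submitters' processing notes. Other versions and the annotation are not given there. Listed values sum to 71.0% to 73.0% of the nominal total per library, and depth is unknown.

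Symbols were checked against values with broadly expressed and tissue-restricted genes. In the upper part, 97.2% of 290 broadly expressed and 9.52% of 42 restricted genes had at least 5 TPM, while lower down values stood 1 or 2 lines below their symbol. The lower 10629 lines were tested but not named. Of the 290, 3 had a 0 in some library, so a 0 is given as listed.

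Limma 3.58.1 in R 4.3.3 was fitted to log2(TPM + 1) with a mean per condition (lmFit, contrasts.fit, eBayes with trend; two-sided; 5 residual degrees of freedom) for 10 pairwise comparisons, with Benjamini-Hochberg adjustment over 14578 lines within each. It was tested on simulated data. Alternatives were median-of-ratios scaling, quantile normalisation, a pseudocount of 0.1, a filter of 5 TPM or none, the replicate number as a term, the named lines alone, only the libraries compared, the fit without 2iL and 2iL-F, each library left out, and Col1a2 or Col3a1 for Col1a1. The members and gene lists were chosen with earlier results of these data known. Beside the members, up to 4 genes per list with the highest mean TPM among those called in 2iL-F against 2iL or 2iL against SL were named, and the 3 nearest genes by profile for each member; marker genes at 0 or of highest TPM, and genes said to be chosen after their values were seen, were added. Gene coordinates are of mm10, GENCODE vM21, and sequences of RefSeq, GRCm38.p6. Tables and figures used Python 3.11.15, numpy 2.4.6, pandas 2.3.3 and matplotlib 3.10.9.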

Additional observations from a re-analysis of the deposited data

How the results depend on the processing

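Each condition has 2 libraries and depth is unknown. Rsad2, Ifih1, Ifit1 and Usp18 lie under 1 TPM in several conditions, and Isg15 and Irf7 in 2iL, where the size of a change depends on the pseudocount. Of 1617 gene-level values under the alternatives, 1595 kept their side of the threshold and 5 newly passed. Another 17 no longer passed (7 of Irf7, 4 of Ifi35, 3 of Irf1, 2 of Ifih1 and 1 of Ifit1). No value that passed in the main fit or in the alternative changed direction. Some that passed in neither did, such as Isg15 in A2iL against 2iL-F, which ran from -0.07 to 0.06 with 1 library left out.

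With a pseudocount of 0.1, members higher numbered 0 in A2iL against SL, 1 in 2iL-F against SL and 0 in A2iL against 2iL-F. The 5 TPM filter left 6 members; 3 were then lower in 2iL-F against SL and 1 higher in A2iL against 2iL-F. With only the libraries compared, 2 of 4 tested members were higher in LCDM against 2iL. The named lines alone, of which 7962 were tested, gave fewer calls: 6469 for 2iL against SL, 4835 for A2iL against SL, 5664 for LCDM against SL, 5645 for 2iL-F against SL, 5332 for 2iL-F against 2iL, 5872 for A2iL against 2iL, 5335 for LCDM against 2iL, 4030 for A2iL against 2iL-F, 5215 for LCDM against 2iL-F and 4826 for LCDM against A2iL. The ratios to collagen in A2iL against SL turned to -0.29 (Col1a2) and -1.98 (Col3a1) for Irf1 and to -0.08 and -1.77 for Irf7.

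Leaving out 1 library at a time, which assumes that the library left alone varies like the others, gave 0 to 1 members higher in A2iL against SL, 0 to 2 higher in 2iL-F against SL, 0 to 1 lower in both 2iL-F against 2iL and A2iL against 2iL, and 1 to 2 higher in A2iL against 2iL-F. Without 2iL and 2iL-F, the counts for A2iL against SL (1 higher, 6 lower), LCDM against SL (8 lower) and LCDM against A2iL (8 lower) were as reported.

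The replicate numbers 3 and 5 are not explained in the labels, and deviations of same-numbered libraries correlated by -0.131 to 0.0746 over the 10 pairs of conditions, none above 0.1. With the replicate number as a block, 2iL against SL had 11241 calls against 11321, and no count of members changed.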

Other observations

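Cgas, which makes the messenger that activates STING on sensing DNA, was chosen after its values were seen. Its libraries of 1 condition differed widely, with 4.38 and 17.3 TPM in 2iL and 2.01 and 14.5 TPM in A2iL. Oas2, an oligoadenylate synthetase, and Sp100, a nuclear body protein, also chosen after their values were seen, were highest in 2iL-F, at 5.26 and 3.39 TPM on average, against 0.479 and 0.568 TPM in SL. Tnfaip3, which restrains NF-kB signalling and was chosen the same way, was highest in A2iL, at 24.1 TPM on average against 8.03 in SL and 0.382 in 2iL.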
